A study of Mus musculus with 4 samples.

Results

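Fatty acid oxidation is the pathway by which muscle fibres draw energy from fat, and 34 mouse genes of it were followed here: the enzymes that activate a fatty acid, carry it into the mitochondrion, shorten it and pass on its electrons, the thioesterases and malonyl-CoA enzymes that set its flow, a pair of peroxisomal enzymes, and 3 linked regulators (Ppara, Pdk4 and Ucp3). They were taken by symbol from 55401 genes in the deposited count files, and all 34 were found. The libraries were made from poly(A) RNA of semimembranosus, a hamstring muscle, of 8-week-old C57BL/6 mice whose external iliac vein, on the left side, had been narrowed with a ligature around a 30-gauge needle. The IVS_diosmin group (2 libraries) received daily gavage with diosmin, a flavonoid taken for vein disease, at a dose of 40 mg per kg, and the IVS group (2 libraries; IVS stands for iliac vein stenosis) was given saline by gavage. Both groups carry the stenosis, and no library from a muscle without it was used here. The comparison asks what diosmin treatment changes in the RNA of this muscle under stenosis. Nothing in the labels ties the 2 replicates of a group to different mice, so each p-value reflects the spread between libraries, and that spread may be technical.

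A long-chain fatty acid is first joined to coenzyme A, then crosses the inner mitochondrial membrane as a carnitine ester, and is then shortened from its carboxyl end by a repeating cycle of dehydrogenation, hydration, a second dehydrogenation and thiolysis. The first dehydrogenation hands its electrons through the electron transfer flavoprotein to the respiratory chain. Entry into the mitochondrion is braked by malonyl-CoA, which in muscle is made mainly at the mitochondrial surface by Acacb and removed by Mlycd. Slow and type IIa fibres are known to carry more of these enzymes than the glycolytic IIb fibres that make up most of a mouse hamstring.

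Gene counts summed to 13897740 and 14539304 in IVS_diosmin replicates 1 and 2 and to 15324354 and 13056650 in IVS replicates 1 and 2. The fatty acid oxidation genes took 0.251% and 0.231% of them in the diosmin libraries and 0.200% and 0.220% in the IVS libraries. The muscle markers Acta1, Ckm, Myh4, Mb and Mylpf together stood at 57330 to 64880 CPM in the 4 libraries. CPM scales each library's gene counts to the same total, here with TMM factors. Of 3 brown fat markers, Ucp1, the defining gene, had no count in any library. Cidea had 14 and 8 counts with diosmin and 0 and 6 in IVS. Elovl3 had 3 and 8 counts with diosmin and 10 and 10 in IVS, and neither was tested. Within the muscle marker sum the genes did not move alike. Mb, myoglobin, rose to 930 and 547 CPM with diosmin, against 382 and 277 CPM in IVS (log2 1.16 ± 0.27, edgeR adjusted p = 0.046), and Acta1 was at 18230 and 19760 CPM with diosmin and at 11100 and 14260 CPM in IVS (log2 0.58 ± 0.22, adjusted p = 0.184). The libraries differed in other ways that run with the groups. Slow and oxidative fibre markers (12 genes) summed to 4748 and 1919 CPM in the diosmin libraries and to 226 and 149 CPM in the IVS libraries, and 10 of the 12 rose. Fast fibre markers (8 genes) summed to 81670 and 81010 CPM in the diosmin libraries and to 102200 and 110900 CPM in the IVS libraries. Of these, 7 had lower values and Tnnc2 alone fell (log2 -0.93 ± 0.21, adjusted p = 0.0396), while Myh1, the IIx myosin, rose (log2 1.17 ± 0.24, adjusted p = 0.0261). Endothelial markers (10 genes) summed to 308 and 276 CPM in the diosmin libraries and to 534 and 570 CPM in the IVS libraries, and 5 of the 10 fell. Rn7sk, a nuclear RNA without a poly(A) tail, was at 11.9 and 5.97 CPM in the diosmin libraries and at 34.6 and 33.5 CPM in the IVS libraries. The share of gene counts on nuclear loci annotated as rRNA was 1.16% and 0.936% in the diosmin libraries and 4.14% and 3.80% in the IVS libraries. The part of these differences in any result below was not tested, and in bulk samples more fibres of a type and more RNA per fibre cannot be told apart.

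Of the 34 genes, 33 had enough counts to be tested, and 4 rose with diosmin while none fell (edgeR quasi-likelihood test, Benjamini-Hochberg adjusted p under 0.05 over 13533 genes). They were Acsl1, Acadl, Acadm and Acacb, with mean levels 1.82 to 2.20 times those of the IVS group, and DESeq2 called the same 4. Among all genes tested, 2.96% were called in either direction, 1.17% higher and 1.78% lower. The 33 genes had a median log2 fold change of 0.32, beside 0.01 for all genes tested, and 25 of them had higher values and 8 lower ones. Both diosmin libraries lay above both IVS libraries for 18 genes and below them for 6, where 23.4% and 24.1% of all genes tested did so. At an unadjusted p under 0.05 there were 11 higher and 2 lower, beside 7.91% and 8.91% of all genes. The 4 calls depended on all libraries being present: none of the 4 was called without IVS replicate 2 or without IVS_diosmin replicate 1, Acadm alone was called without IVS replicate 1, and Acsl1 and Acacb were called without IVS_diosmin replicate 2. Without scaling beyond the total gene count, which moved the median of all genes by -0.12, Acacb alone was called.

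**Figure D1:**
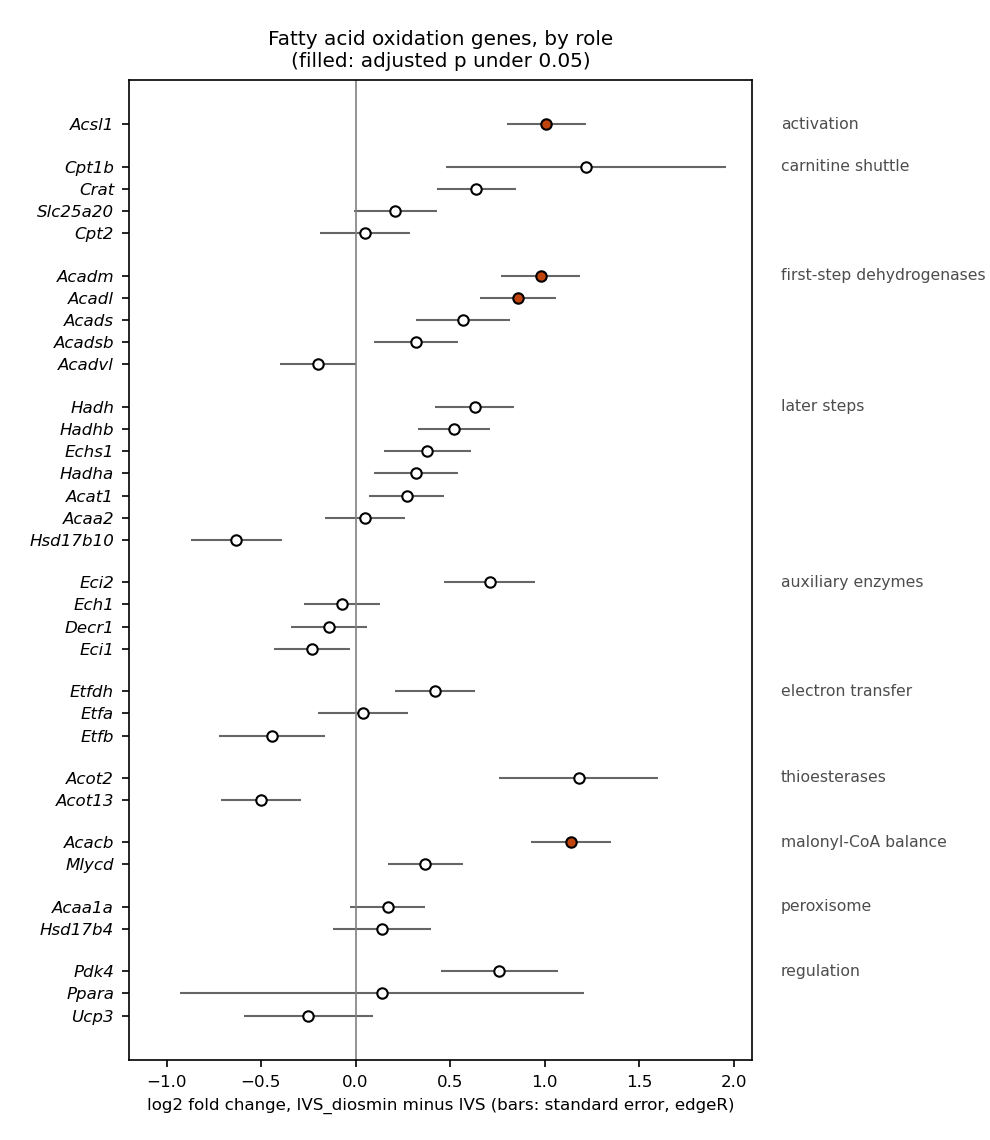
Log2 fold change of the 33 tested genes, IVS_diosmin minus IVS, by role in the pathway, from 2 libraries per group. Points are estimates, bars are standard errors, and filled points mark an adjusted p under 0.05; the 4 filled points (Acsl1, Acadl, Acadm, Acacb) lie between 0.86 and 1.14, and the tested genes run from -0.63 (Hsd17b10) to 1.22 (Cpt1b).

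The promoters of the 4 genes that rose are shown because they moved together; 27 of the 34 genes had a window in the RefSeq table (GRCm38.p6), from 250 bases before to 50 after an annotated start. Capitals mark the nuclear receptor half-site AGGTCA (or TGACCT on the other strand) in Acadm and Acacb and the GC box GGGCGG (or CCGCCC) in Acadl and Acsl1. Acsl1 has another window at a start further into the gene, which held no GC box. The only Acacb window also lies at a start inside the gene, which begins at 114146535.
Acadm (chr3:153944594-153944893, minus strand): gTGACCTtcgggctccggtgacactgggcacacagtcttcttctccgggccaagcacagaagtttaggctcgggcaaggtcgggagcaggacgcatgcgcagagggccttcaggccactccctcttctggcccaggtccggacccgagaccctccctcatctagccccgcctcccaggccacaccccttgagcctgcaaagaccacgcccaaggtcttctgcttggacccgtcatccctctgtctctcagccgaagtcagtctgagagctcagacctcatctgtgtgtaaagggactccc
Acacb (chr5:114165268-114165567, plus strand): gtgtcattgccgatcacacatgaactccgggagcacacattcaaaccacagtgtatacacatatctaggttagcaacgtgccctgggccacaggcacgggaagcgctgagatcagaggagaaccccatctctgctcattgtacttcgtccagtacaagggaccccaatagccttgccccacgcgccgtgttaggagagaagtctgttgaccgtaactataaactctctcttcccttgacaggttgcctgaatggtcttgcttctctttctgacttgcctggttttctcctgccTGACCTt
Acadl (chr1:66863260-66863559, minus strand): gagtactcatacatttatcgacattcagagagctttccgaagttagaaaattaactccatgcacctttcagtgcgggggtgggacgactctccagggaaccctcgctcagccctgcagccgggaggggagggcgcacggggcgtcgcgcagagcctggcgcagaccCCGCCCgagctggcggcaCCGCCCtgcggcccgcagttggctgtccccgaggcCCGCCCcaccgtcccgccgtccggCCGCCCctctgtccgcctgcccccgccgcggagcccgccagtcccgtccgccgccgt
Acsl1 (chr8:46470787-46471086, plus strand): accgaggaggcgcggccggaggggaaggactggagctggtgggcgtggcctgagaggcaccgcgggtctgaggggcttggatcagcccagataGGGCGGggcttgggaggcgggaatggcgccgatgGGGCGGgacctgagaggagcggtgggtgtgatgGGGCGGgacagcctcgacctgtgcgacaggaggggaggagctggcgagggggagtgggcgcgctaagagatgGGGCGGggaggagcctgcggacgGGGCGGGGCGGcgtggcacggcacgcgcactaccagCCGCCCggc

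Each of 14 motifs was searched as exact letters on both strands; the genes shown and the motif marked in each were picked after the matches were seen. The half-site AGGTCA, the core that PPAR and estrogen-related receptors bind, was found in 5 of the 27 genes (Acadvl, Acadm, Echs1, Acacb and Ucp3), which is 18.5%, beside 18.1% of the 27025 genes with a window. It lay 249 bases before the start in Acadm and, in Acacb, 44 bases into the transcript that starts inside the gene. The direct repeat of that core with 1 base between, the usual PPAR element, was found in none of the 27. Nor was TCAAGGTCA, the estrogen-related receptor element. Both contain the core, and they occur in 0.0481% and 0.466% of genes, so finding none among 27 was likely in advance. An exact search of these windows does not cover most variant forms or sites further from the start. The GC box was found in 19 of the 27 (70.4%), beside 38.2% of genes; Acadl held 4 and Acsl1 held 7, of which one pair overlapped, and Acadm and Acacb held none. CCAAT was in 13 of the 27 (48.1%, beside 41.1%), the palindromic NRF1 motif in Etfdh and Ppara (7.41%, beside 1.07%), and the E-box CACGTG in none (8.09% of genes). The other 7 motifs gave few matches. The direct repeat with A as the middle base, a looser form of that repeat, the cAMP response element TGACGTCA and the MEF2 motif were found in none of the 27 (0.0185%, 0.27%, 2.03% and 0.122% of genes). The half-site variant GGGTCA was in Etfdh alone (3.7%, beside 15.3% of genes), the YY1 motif AAGATGGCG in Ech1 and Eci1 (7.41%, beside 1.64%), and TATAAA in Acacb alone (3.7%, beside 15.7%). None of the 14 motifs was present in all 4 genes that rose.

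The gene of fatty acid activation rose. Acsl1, the main acyl-CoA synthetase of muscle, heart and fat (mm10 chromosome 8, 46471037 to 46536051, plus strand), was at 124 and 95.2 CPM in the diosmin libraries and at 55.8 and 53.0 CPM in the IVS libraries. Both diosmin libraries were higher, and the IVS libraries lay close together. The log2 fold change was 1.01 ± 0.21 (SE, n = 2 libraries a group, edgeR adjusted p = 0.0262). Without 1 library at a time it ran from 0.81 to 1.17, with an adjusted p from 0.0191 to 0.217. Of 7 other activation genes on the list of other pathway genes, none passed in edgeR with its count filter and every library. Among them 2 had higher values and 5 lower. At an unadjusted p under 0.05 there were 1 higher (Acss1, the mitochondrial acetyl-CoA synthetase, log2 0.69 ± 0.30, adjusted p = 0.269) and 2 lower, beside 7.91% and 8.91% of all genes tested. Whether they differ from Acsl1 was not tested. Acsl6 was at 71.1 and 82.5 CPM with diosmin and at 83.9 and 77.0 CPM in IVS (log2 -0.07 ± 0.20, edgeR adjusted p = 0.913), and Acsl3 was at 12.3 and 11.7 CPM with diosmin and at 45.3 and 16.5 CPM in IVS (log2 -1.38 ± 0.44, adjusted p = 0.18). Acsl3 was called by DESeq2 and with no filter on low counts, and in no other setting with every library.

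No gene of the carnitine shuttle passed the test. At an unadjusted p under 0.05, 1 of the 4 was higher (Crat), beside 7.91% of all genes tested. Crat, which exchanges acetyl groups between coenzyme A and carnitine, had the highest level of the group per transcript length (49.6 CPM per kb with diosmin and 31.7 CPM per kb in IVS). It was at 194 and 225 CPM in the diosmin libraries, both above the 117 and 152 CPM of the IVS libraries, and its log2 fold change was 0.64 ± 0.21 (adjusted p = 0.14). Cpt2, which remakes the acyl-CoA inside the mitochondrion, was at 16.3 and 14.9 CPM with diosmin and at 16.6 and 13.4 CPM in IVS, so that the groups overlapped (log2 0.05 ± 0.24). Slc25a20, the carrier that swaps acylcarnitine for carnitine, was at 20.4 and 24.2 CPM with diosmin and at 20.3 and 18.4 CPM in IVS (log2 0.21 ± 0.22). Cpt1b, the muscle carnitine palmitoyltransferase that malonyl-CoA inhibits, had 51 and 25 counts in the diosmin libraries and 35 and 4 in the IVS libraries (log2 1.22 ± 0.74, adjusted p = 0.455). Those counts do not give its level, because 2744 of its 3372 exon bases also belong to a read-through gene on the same strand, Gm44502, which had no count in any library; reads on shared bases may not have been assigned to either gene. Cpt1a, the liver form, was at 8.25 and 4.37 CPM with diosmin and at 4.97 and 6.74 CPM in IVS, and the counts of Cpt1b per count of Cpt1a, 0.477 and 0.397 with diosmin and 0.402 and 0.0482 in IVS, overlapped.

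The acyl-CoA dehydrogenases are graded by chain length, and they did not move alike. Acadm, which takes medium chains (mm10 chromosome 3, 153922357 to 153944632, minus strand), was at 95.5 and 95.0 CPM in the diosmin libraries and at 54.6 and 42.1 CPM in the IVS libraries. Acadl, which takes long chains (mm10 chromosome 1, 66830839 to 66863277, minus strand), was at 127 and 110 CPM with diosmin and at 62.9 and 67.7 CPM in IVS. Neither gene's groups overlapped. The log2 fold changes were 0.98 ± 0.21 for Acadm (adjusted p = 0.0282) and 0.86 ± 0.20 for Acadl (adjusted p = 0.0396). When 1 library was left out, Acadm ran from 0.80 to 1.18 (adjusted p from 0.0388 to 0.287) and Acadl from 0.76 to 0.95 (0.0611 to 0.243).

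Acadvl, the very-long-chain enzyme of the inner membrane, had the highest level of the 5 in IVS, at 54.4 CPM per kb, beside 47.5 CPM per kb with diosmin. It was at 110 and 96.4 CPM in the diosmin libraries and at 118 and 118 CPM in the IVS libraries, and did not pass (log2 -0.20 ± 0.20, adjusted p = 0.689). Acads, for short chains, was at 19.5 and 29.6 CPM with diosmin and at 15.6 and 17.6 CPM in IVS (log2 0.57 ± 0.25, adjusted p = 0.267), and Acadsb, for branched short chains, was at 43.3 and 47.8 CPM with diosmin and at 42.3 and 30.7 CPM in IVS (log2 0.32 ± 0.22). A ratio of counts within a library does not depend on how libraries are scaled. Acadl had 1.16 and 1.14 counts per count of Acadvl in the diosmin libraries, against 0.532 and 0.575 in the IVS libraries, and Acadm had 0.872 and 0.986 against 0.462 and 0.358. Acadm per count of Acads was 4.9 and 3.2 with diosmin, against 3.5 and 2.39 in IVS, so that the groups overlapped. These ratios were chosen after the values were seen. In both diosmin libraries Acadl and Acadm lay above both IVS libraries and Acadvl below them. The ratios to Acadvl therefore had to differ and only restate those values. Of 7 ratios chosen after the values were seen over the whole pathway, 4 kept the groups apart and 3 overlapped. As 2 libraries against 2 cannot give an exact permutation p below 0.333, they are given without a test. The level of Acadvl, and with it the ratios to Acadvl, carries a limit. Of its 2686 exon bases, 1151 lie opposite exons of Dvl2. Dvl2 stood at 89.2 and 69.4 CPM with diosmin and at 95.9 and 91.4 CPM in IVS. Without strand the reads of the pair cannot be told apart.

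**Figure D2:**
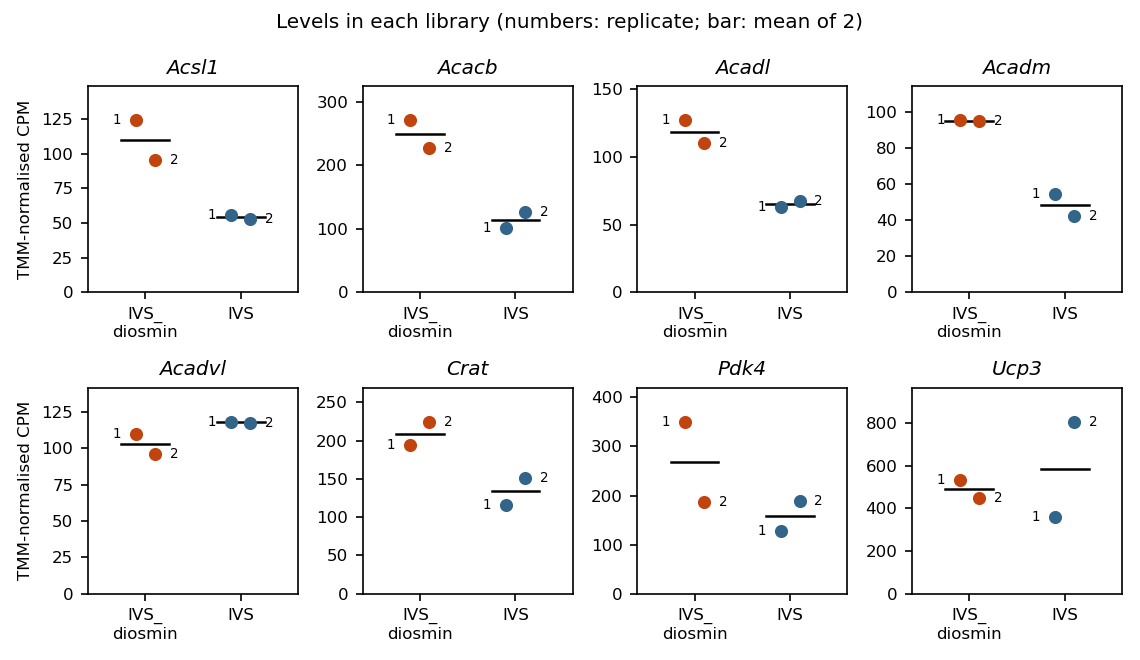
TMM-normalised CPM of 8 genes in each library, with IVS_diosmin left of IVS; points are libraries, numbers their replicate, and bars the mean of 2. For Acsl1, Acacb, Acadl, Acadm and Crat both diosmin libraries lie above both IVS libraries, for Acadvl below them, and for Pdk4 and Ucp3 the groups overlap.

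None of the 7 genes of the later steps of the cycle passed, and 6 had higher values. At an unadjusted p under 0.05 there were 2 higher and 1 lower, beside 7.91% and 8.91% of all genes tested. Hadh, the short-chain hydroxyacyl-CoA dehydrogenase, had the lowest p of the group and was at 57.4 and 45.5 CPM with diosmin, above the 33.4 and 33.0 CPM of both IVS libraries (log2 0.63 ± 0.21, adjusted p = 0.136). Hadhb, the thiolase subunit of the mitochondrial trifunctional protein, had the highest level of the group per transcript length with diosmin, at 37.4 CPM per kb, beside 26.1 CPM per kb in IVS, where Hsd17b10 stood higher, at 35.15 CPM per kb. Hadhb was at 80.0 and 73.3 CPM with diosmin and at 54.3 and 52.5 CPM in IVS (log2 0.52 ± 0.19, adjusted p = 0.187). Its partner Hadha, the hydratase and dehydrogenase subunit, was at 96.9 and 99.7 CPM with diosmin and at 63.0 and 94.2 CPM in IVS (log2 0.32 ± 0.22). The counts of Hadha per count of Hadhb were 1.21 and 1.36 with diosmin and 1.16 and 1.79 in IVS, so the balance of the subunits was within the spread of the IVS libraries. Of the thiolases, Acaa2 was at 41.9 and 35.1 CPM with diosmin and at 38.5 and 36.2 CPM in IVS (log2 0.05 ± 0.21), and Acat1, which splits acetoacetyl-CoA, was at 61.9 and 74.9 CPM with diosmin and at 55.8 and 57.4 CPM in IVS (log2 0.27 ± 0.20). Echs1, the short-chain enoyl-CoA hydratase, had a log2 fold change of 0.38 ± 0.23. Hsd17b10, a dehydrogenase of short and branched chains that is also part of mitochondrial RNase P, leaned the other way, at 24.6 and 19.0 CPM with diosmin and at 27.3 and 40.3 CPM in IVS, and did not pass (log2 -0.63 ± 0.24, adjusted p = 0.205).

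The isomerases and the reductase that prepare the double bonds of unsaturated chains for the cycle did not pass. Eci2, an enoyl-CoA isomerase of mitochondria and peroxisomes, was at 32.9 and 33.0 CPM with diosmin, above the 16.2 and 24.4 CPM of the IVS libraries (log2 0.71 ± 0.24, adjusted p = 0.141). Ech1, the dienoyl-CoA isomerase and the most abundant of the 4 per transcript length (51.4 CPM per kb with diosmin and 54.1 CPM per kb in IVS), was at 70.2 and 60.2 CPM with diosmin and at 70.6 and 66.5 CPM in IVS (log2 -0.07 ± 0.20). Eci1 and Decr1, the mitochondrial isomerase and the dienoyl-CoA reductase, had log2 fold changes of -0.23 ± 0.20 and -0.14 ± 0.20.

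The flavoprotein that receives electrons from the acyl-CoA dehydrogenases did not follow Acadl and Acadm past the threshold. Etfa, its alpha subunit, had the highest level of the 3 genes per transcript length and was at 23.4 and 21.2 CPM with diosmin and at 26.0 and 17.3 CPM in IVS (log2 0.04 ± 0.24, adjusted p = 0.962). Etfdh, the oxidoreductase that passes the electrons to ubiquinone, had the lowest p and was at 29.9 and 26.7 CPM with diosmin, above the 21.4 and 20.8 CPM of the IVS libraries (log2 0.42 ± 0.21, adjusted p = 0.337). Etfb, the beta subunit, was at 7.17 and 8.12 CPM with diosmin and at 10.7 and 9.995 CPM in IVS (log2 -0.44 ± 0.28, adjusted p = 0.485). Of its 1164 exon bases 617 are shared with a gene on the same strand, Gm45233, that had no count, so its level, and the 3.27 and 2.62 counts of Etfa per count of Etfb with diosmin against 2.43 and 1.73 in IVS, are uncertain.

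The largest rise among the genes that passed was that of Acacb, the acetyl-CoA carboxylase whose product slows the entry of fatty acids into the mitochondrion (mm10 chromosome 5, 114146535 to 114250761, plus strand). It was at 271 and 227 CPM in the diosmin libraries and at 101 and 126 CPM in the IVS libraries, with no overlap. The log2 fold change was 1.14 ± 0.21 (edgeR adjusted p = 0.0166), and from 0.98 to 1.30 without 1 library at a time (adjusted p from 0.0214 to 0.176). Mlycd, malonyl-CoA decarboxylase, which removes that product, was at 45.2 and 46.6 CPM with diosmin and at 33.0 and 37.8 CPM in IVS, and did not pass (log2 0.37 ± 0.20, adjusted p = 0.382). Within a library there were 5.99 and 4.88 counts of Acacb per count of Mlycd with diosmin, against 3.04 and 3.33 in IVS, a ratio chosen after the values were seen. Acaca, the cytosolic carboxylase of fatty acid synthesis, was at 19.5 and 17.8 CPM with diosmin and at 10.5 and 12.2 CPM in IVS (log2 0.72 ± 0.24, adjusted p = 0.134). Counts of Acacb per count of Acaca were 13.9 and 12.7 with diosmin and 9.57 and 10.3 in IVS. The 4 genes that rose therefore hold 3 enzymes that run the pathway and 1 whose product brakes it.

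**Figure D3:**
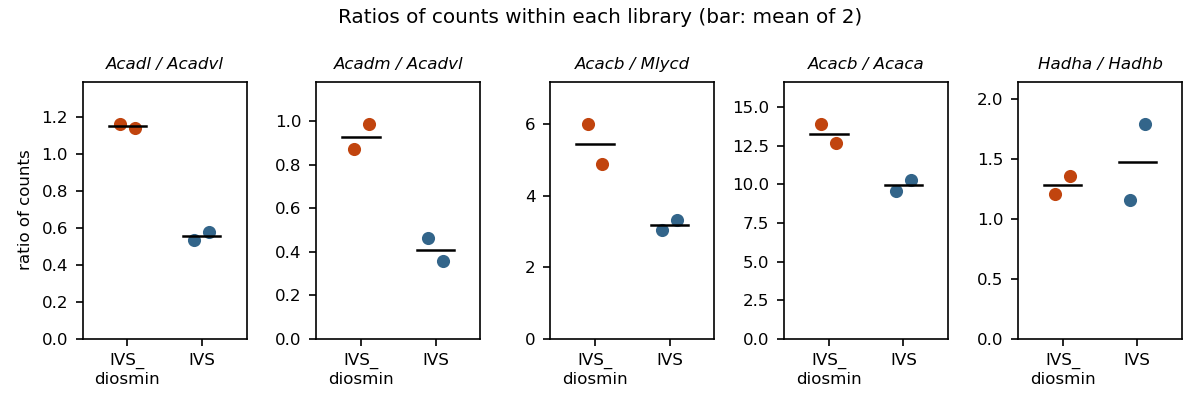
Ratios of counts between pairs of genes within each library, IVS_diosmin left of IVS, on linear axes from 0; points are libraries and bars the mean of 2. Acadl over Acadvl (1.16 and 1.14 against 0.532 and 0.575), Acadm over Acadvl, Acacb over Mlycd and Acacb over Acaca are higher in both diosmin libraries, and Hadha over Hadhb overlaps. The ratios to Acadvl and to Mlycd were chosen after the values were seen. Of 7 ratios chosen in that way, the 3 that overlapped are not shown.

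Thioesterases release free fatty acids from acyl-CoA, and neither of the 2 tested passed. Acot13, a small mitochondria-associated thioesterase, was the most abundant per transcript length (68.4 CPM per kb with diosmin and 96.4 CPM per kb in IVS), and was at 57.1 and 41.4 CPM with diosmin and at 69.4 and 69.6 CPM in IVS (log2 -0.50 ± 0.21, adjusted p = 0.26). Acot2, of the mitochondrial matrix, was at 6.63 and 4.17 CPM with diosmin and at 2.17 and 2.60 CPM in IVS (log2 1.18 ± 0.42, adjusted p = 0.167). Acot1, its cytosolic neighbour on chromosome 12, had 6 and 22 counts in the diosmin libraries and 0 in both IVS libraries, and its low counts kept it out of the test. Its pooled level with diosmin was 10.2 times a floor of 3 counts over the IVS group. That floor covers counting error alone, and libraries of a group differed by more. The ratio is therefore no firm lower limit on the change. It was 15.2 without IVS_diosmin replicate 1, 4.59 without IVS_diosmin replicate 2, 4.2 without IVS replicate 1 and 5.96 without IVS replicate 2. With no filter on low counts its edgeR adjusted p was 0.0192, in a setting that called 919 genes rather than 400. DESeq2, run on as many genes (22446), did not call Acot1. It gave no adjusted p to Ppara, a gene of similarly low counts, so the missing call for Acot1 decides nothing. Reads of this pair are not well separated, since 24.6% of the 50-base stretches of Acot2 transcripts occur in Acot1. Counts of Acot1 per count of Acot2 were 0.0698 and 0.367 with diosmin and 0 in both IVS libraries. For each of the pair, both diosmin libraries lay above both IVS libraries, as they did for 23.4% of all genes tested.

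The peroxisomal genes did not pass. Acaa1a, the peroxisomal thiolase, was at 41.3 and 35.9 CPM with diosmin and at 33.2 and 35.6 CPM in IVS (log2 0.17 ± 0.20, adjusted p = 0.758). Hsd17b4, the multifunctional enzyme of peroxisomal oxidation, was at 14.3 and 11.3 CPM with diosmin and at 11.3 and 11.9 CPM in IVS (log2 0.14 ± 0.26). Another 13 peroxisomal genes were on the list of other pathway genes, and of the 11 tested none was called by edgeR or DESeq2. At an unadjusted p under 0.05 there were 2 higher, beside 7.91% of all genes tested.

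None of the regulators passed. Ucp3, the uncoupling protein of muscle mitochondria, had the highest level of all 34 genes (201 CPM per kb with diosmin and 238 CPM per kb in IVS). It was at 536 and 448 CPM with diosmin, between the 360 and 807 CPM of IVS replicates 1 and 2 (log2 -0.25 ± 0.34, adjusted p = 0.795). Pdk4, the kinase that switches off pyruvate dehydrogenase when fat is burned, was at 350 and 188 CPM with diosmin and at 127 and 190 CPM in IVS. Only diosmin replicate 1 lay above both IVS libraries, and the gene did not pass (log2 0.76 ± 0.31, adjusted p = 0.251). Its counts per count of Pdk2 (1.30 and 0.621 with diosmin, 0.635 and 1.05 in IVS) overlapped, as did those of Pdk1 per count of Pdk4 (0.0696 and 0.144 with diosmin, 0.104 and 0.0599 in IVS). Ppara, the nuclear receptor that controls many of these genes, was near the floor, with 13 and 2 counts with diosmin and 13 and 3 in IVS, so no difference was detectable at this depth. Both Ucp3 and Pdk4 differed more within a group than between the group means, unlike the 4 genes that rose.

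**Figure D4:**
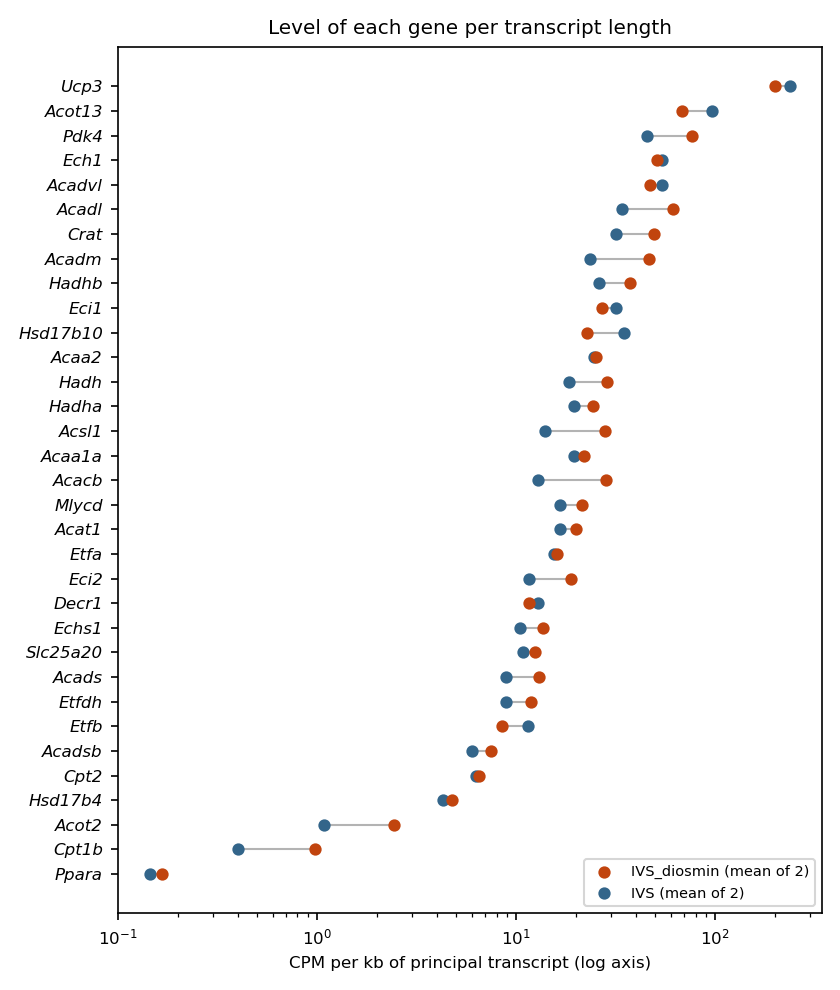
Mean level of 33 genes in CPM per kb of the principal transcript, on a log axis, for IVS_diosmin and IVS (means of 2 libraries; Acot1 is left out because it had no count in IVS). Ucp3 stands highest at 201 and 238 CPM per kb and Ppara lowest; the second is Pdk4 with diosmin (77.2 CPM per kb) and Acot13 in IVS (96.4 CPM per kb); Cpt1b and Etfb are shown as counted, although most or much of their exons are shared with another gene.

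Other genes of the pathway were read from a list of 72, of which 69 were tested. Of these 1 rose and 2 fell, beside 1.17% and 1.78% of all genes tested. The median log2 fold change of the 69 was 0.11, beside 0.01 for all genes tested. Pdk1, another kinase of pyruvate dehydrogenase, rose to 24.4 and 27.0 CPM with diosmin, against 13.3 and 11.4 CPM in IVS (log2 1.06 ± 0.22, edgeR adjusted p = 0.0282), a call that was lost without any 1 library (adjusted p from 0.056 to 0.223). The genes of fatty acid uptake split. Cd36 (log2 -1.39 ± 0.20, edgeR adjusted p = 0.0044), which endothelium shares with muscle and fat, fell. Fabp4 (log2 -1.22 ± 0.22, adjusted p = 0.0121), a carrier of endothelium and fat, fell as well. Cd36 missed the threshold without IVS_diosmin replicate 1 (adjusted p = 0.0814), and Fabp4 missed it in 3 of the 4 fits without 1 library, with the adjusted p reaching 0.124. Slc27a1, a fatty acid transporter of muscle fibres, and Fabp3, their cytosolic carrier, had positive values that did not pass in edgeR (log2 1.00 ± 0.26, adjusted p = 0.0684, and 0.94 ± 0.26, adjusted p = 0.0761). DESeq2 called both, as did edgeR with no filter on low counts, and no other setting with every library did. Counts of Acsl1 per count of Cd36, a ratio also chosen after the values were seen, were 1.80 and 1.55 with diosmin and 0.326 and 0.312 in IVS. As Acsl1 rose and Cd36 fell, that ratio had to differ and only restates the 2 calls. The uptake calls stand beside the lower endothelial markers given above, whose part was not tested.

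Of 23 regulators on that list 22 were tested. Pdk1 alone was called by edgeR with TMM scaling, its count filter and every library. At an unadjusted p under 0.05 there were 7 higher and 2 lower, beside 7.91% and 8.91% of all genes tested. Ppargc1a, the coactivator of mitochondrial genes, was at 8.56 and 14.0 CPM with diosmin and at 8.86 and 8.61 CPM in IVS (log2 0.37 ± 0.30, adjusted p = 0.608). Esrra, the estrogen-related receptor alpha, was at 57.9 and 58.7 CPM with diosmin and at 54.2 and 43.6 CPM in IVS (log2 0.25 ± 0.20). Esrrg, the estrogen-related receptor gamma, was at 6.09 and 2.64 CPM with diosmin, above the 1.14 and 1.38 CPM of the IVS libraries (log2 1.79 ± 0.53, adjusted p = 0.0991), and was called only when no filter on low counts was used. Prkaa2, the catalytic subunit of AMP-activated kinase, which phosphorylates and inhibits Acacb, was at 42.7 and 60.0 CPM with diosmin, above the 33.7 and 25.1 CPM of the IVS libraries, and did not pass (log2 0.80 ± 0.24, edgeR adjusted p = 0.0978). Prkaa2 was called only with no filter on low counts. Pparg, the fat cell receptor, was at 3.24 and 1.46 CPM with diosmin and at 5.66 and 11.3 CPM in IVS (log2 -1.85 ± 0.47, edgeR adjusted p = 0.0599). Pparg was called by DESeq2, with no filter on low counts and with no scaling beyond the total gene count. No other setting with every library called it. White fat markers were sparse, summing to 6.79 and 15.4 CPM with diosmin and to 11.6 and 32.1 CPM in IVS over 6 genes, with Lep at 1 count in all 4 libraries together.

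The diosmin libraries differed from each other in the level of slow fibre markers. Replicate 1 had 2.76 times as much Myh7, the slow myosin, as replicate 2, and the 12 slow and oxidative fibre markers had a median ratio of 2.46, from 1.15 (Myh7b) to 3.10 (Myl2). The ratios were 1.30 for Acsl1, 1.19 for Acacb, 1.15 for Acadl and 1.01 for Acadm. Another 28 tested genes of the pathway, Ppara aside, had a median ratio of 1.10, from 0.66 (Acads) to 2.27 (Cpt1b), and Pdk4 had 1.87. Ppara, with 13 and 2 counts, had 7.22. Other genes went both ways: Mb had 1.70, Fabp3 1.73, Slc27a1 1.80 and Bdh1 3.60, while Pdk1 had 0.90 and Prkaa2 0.71. These ratios compare single libraries, were looked at after the values were seen, and have no test. Whether Acsl1, Acacb, Acadl and Acadm follow slow fibre content was not tested, and ratios between single libraries cannot decide it.

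**Figure D5:**
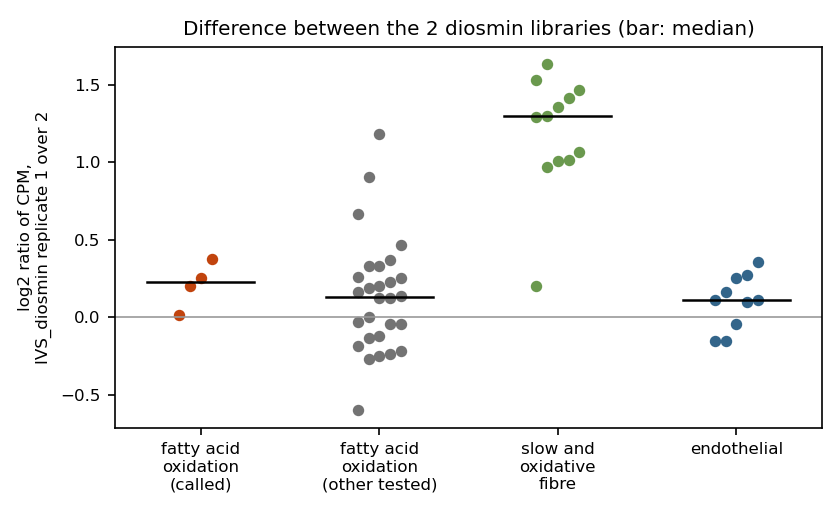
Log2 ratio of CPM between IVS_diosmin replicate 1 and replicate 2, for the 4 genes that rose, the 28 other tested genes of the pathway (Ppara left out), 12 slow and oxidative fibre markers and 10 endothelial markers; points are genes and bars medians. The median ratios are 1.17, 1.10, 2.46 and 1.08 before the log. Each ratio compares single libraries, without a test.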

How the data were processed

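The deposited files hold raw read counts for each gene in each library; per the submitters' processing notes, HISAT2 2.1.0, HTSeq and mm10 were used. Annotation release, strand setting and filters are not given in the sources used here, and per the labels' protocols the library kit is not described as keeping strand. Gene lines held 24.9% to 27.7% of the reads each file accounted for; 37.7% to 45.6% aligned to more than 1 place and 25.8% to 29.7% lay in no feature. The 5 summary lines that name no gene stayed out of all steps. Symbols, positions and lengths were those of GENCODE M21, also on mm10 (55141 of 55401 genes matched).

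Counts were tested with edgeR 4.0.16 in R 4.3.3 (filterByExpr, TMM, robust quasi-likelihood fit of IVS_diosmin minus IVS, 2-sided, Benjamini-Hochberg adjustment over 13533 genes, threshold 0.05), which was tested on simulated data. A standard error is the log2 fold change divided by the square root of F. CPM per kb uses the longest APPRIS principal transcript. Replicates differed by more than sampling noise (chi-square per degree of freedom of 21.2 in IVS_diosmin and 31.0 in IVS), and counting error alone sets the floor of 3 counts. DESeq2 1.42.0, other scalings and filters, a replicate block and leaving out each library were the alternatives. All 34 genes are accounted for; in full are given those that passed and, in each role, the one of lowest p and of highest level. Of other pathway genes, those that passed and the highest of each subgroup could be named; Acsl3, Acss1, Cpt1a, Acaca, Slc27a1, Fabp3, Ppargc1a, Esrra, Esrrg, Prkaa2, Pparg and, opposite Acadvl, Dvl2 stand outside that rule and were chosen after their values were seen. Promoter motifs were searched in 14 forms, and every result is given. The genes and lists were chosen with earlier results of these data known. The list of other pathway genes named Mmut, which is called Mut in GENCODE M21.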

Additional observations from a re-analysis of the deposited data

How the results depend on the processing

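The 4 calls (Acsl1, Acadl, Acadm and Acacb) were kept under RLE scaling, upper-quartile scaling, a minimum mean of 50 counts and DESeq2. Acsl1, Acadm and Acacb were kept without robust estimation (Acadl had an adjusted p = 0.0522). With no scaling beyond the total gene count 1 was kept (Acacb), other pathway calls numbered 3, and the median of the 33 genes was 0.18. With no filter on low counts 6 genes were called (Acot1 and Pdk4 added), 13 other pathway genes and 919 genes in all; DESeq2 called 7 other pathway genes. Leaving out 1 library at a time gave 0 to 2 calls among the 33 genes, 0 to 4 among other pathway genes and 38 to 366 among all genes (400 with every library), and a median of the 33 genes between 0.25 and 0.39. A lone library is then assumed to vary like the other group. Replicate numbers share no stated source, and deviations of same-numbered libraries correlated at 0.01; the fit with the replicate block called 0 of the 33 genes, 1 other pathway gene (Cd36) and 93 genes in all.

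Directions turned for 7 genes, none of which passed in any setting. Without scaling, Cpt2 was at -0.08, Acaa2 at -0.08, Etfa at -0.10 and Ppara at -0.04. Leaving out 1 library, the values ran from -0.10 to 0.21 for Cpt2, -0.09 to 0.15 for Acaa2, -0.19 to 0.02 for Ech1, -0.23 to 0.37 for Etfa, -0.03 to 0.28 for Hsd17b4, -1.80 to 1.17 for Ppara and -0.72 to 0.44 for Ucp3. The cause of these changes was not tested. Low counts limit Acot1, Acot2, Cpt1b and Ppara.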
